A study of Cavia porcellus with 30 samples.

Results

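The comparison described here set guinea pig livers taken 9 h after a low dose of thioacetamide, 25 mg/kg, against livers taken 9 h after saline vehicle, 3 ml/kg. Its members were the 5 animals labelled with the low dose and 9 h and the 5 labelled with vehicle and 9 h, 10 of the 30 animals in the series, and each animal was 1 library. All were Hartley guinea pigs, an outbred laboratory breed, and the labels give neither age nor sex. Beside them, 5 animals given 100 mg/kg (the high dose) with livers taken at 9 h, 5 given the low dose and 5 given vehicle with livers taken at 33 h were used to ask whether a change differed with dose or with time. The stated aim of the series was to produce different degrees of injury.

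Thioacetamide is harmful only after liver enzymes, cytochrome P450 2E1 and flavin monooxygenases among them, have oxidised it to its sulfoxide and then to a reactive product that binds proteins and lipids. Hepatocytes around the central vein, which hold most of the P450 enzymes, are the cells it is known to damage. In rodents repeated dosing is used as a model of fibrosis, and a single dose as a model of acute injury. Whether liver RNA changes at a dose meant to give a lesser degree of injury, how strongly, and in which transcripts is what the low dose animals at 9 h can show.

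Poly-A RNA was measured as estimated counts per transcript, and the tables list 25824 transcripts under Ensembl identifiers. The files do not pair these with gene names, and the reference table used here matched none of them, so transcripts are described by level, length, size of change and behaviour across animals, and only 4 are named. For the same reason the liver label could not be checked against marker genes. Totals were 23112100 to 32311000 estimated counts in low dose libraries and 23714200 to 33842300 in vehicle libraries, so depth overlapped between the groups. Lengths of the sequenced fragments, read from the gap between transcript length and effective length, overlapped too, at 203 to 249 bases in low dose libraries and 197 to 234 bases in vehicle libraries. The filter on low counts left 18239 transcripts to test. Levels are given in the authors' TPM, which scales counts by transcript length and library. Bulk liver RNA cannot tell fewer cells of a type from less RNA per cell, and counts are shares of the sequenced RNA, not amounts per liver.

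The low dose changed many liver transcripts by 9 h, in both directions. In edgeR's quasi-likelihood test 24.7% of those tested passed at an adjusted p under 0.05, 13.5% as rises and 11.2% as falls. Rises were the larger changes. The median rise was 0.74 on the log2 scale, with an interquartile range of 0.49 to 1.31, while the median fall was -0.50, with an interquartile range of -0.68 to -0.37. Falls of less than 1.5-fold made up 64.7% of all falls, and rises of less than 1.5-fold 35.6% of all rises. At least 4-fold changes numbered 375 rises and 24 falls, and at least 16-fold changes 129 rises and 21 falls.

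**Figure D1:**
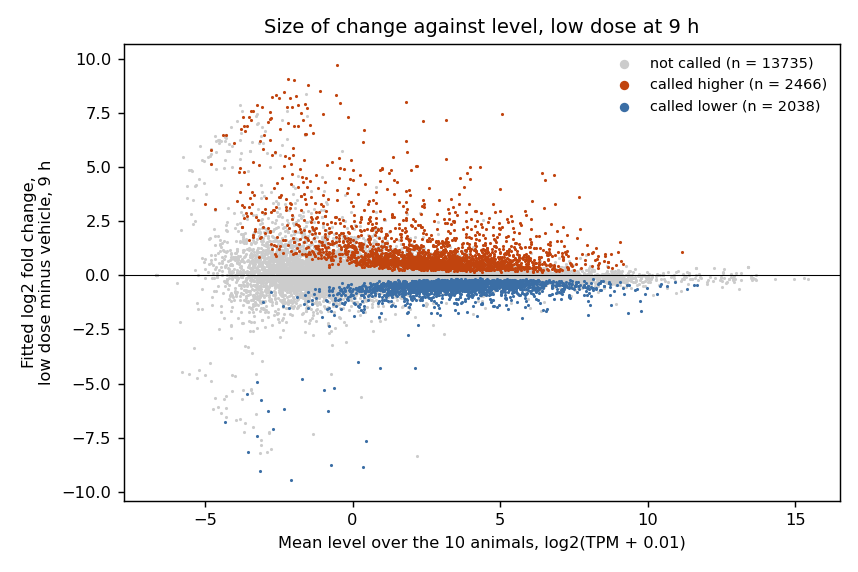
Fitted log2 fold change (low dose minus vehicle, 9 h, vertical) of each of the 18239 tested transcripts against its mean level over the 10 animals (horizontal, log2 of TPM plus 0.01), with transcripts called higher in orange, called lower in blue and not called in grey. Called rises reach far above a log2 change of 2 at all but the highest levels, while most called falls lie above -2 and the 24 steeper ones sit at low levels.

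For most calls the animals did not overlap at all, judged on counts scaled as in the fit. Each of the 5 low dose livers was above each of the 5 vehicle livers for 1836 of the 2466 called rises, or 74.5%, against 11.2% of all tested transcripts. Each was below for 1344 of the 2038 called falls, or 65.9%, against 8.55% of all tested. Calls and overlap were judged on the same 10 animals, and all tested transcripts include the called ones. A higher share among calls was therefore built in and is no further evidence. When each of the 10 animals was left out in turn, 1791 rises and 1256 falls were called in every one of the 10 fits. The changes kept in this way were larger than those lost at least once, with a median of 0.80 against 0.56 for rises and -0.55 against -0.40 for falls.

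The 4 transcripts named here had the largest change and the smallest p in each direction among called transcripts with at least 5 CPM (counts scaled to the library total) in the higher group and no overlap between the groups. Because that rule picked them for their separation, their lack of overlap is no further evidence. The largest rise under it was that of ENSCPOT00000008335.3, a short transcript of 282 bases. It is little longer than the sequenced fragments, so its TPM level, which depends on effective length, is uncertain. It measured 37.3, 73.6, 52.4, 31.8 and 140.0 TPM in the 5 low dose livers, against 0, 0.887, 0, 0.720 and 0 TPM in the 5 vehicle livers. It was thus next to absent without thioacetamide and differed several-fold among the treated animals, with animal 5 highest. Summed, 820 estimated counts in the low dose libraries stood against 4 in the vehicle libraries. The fitted log2 change was 7.43 ± 1.16 (SE, for fitted changes here and below back-calculated from the test statistic, adjusted p = 2.94e-05). It was not called by limma voom (adjusted p = 0.0664).

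ENSCPOT00000007517.3, of 2816 bases, had the smallest p among the rises. Its levels were 15.5, 14.1, 11.6, 15.99 and 17.1 TPM in low dose livers and 1.6004, 2.46, 2.33, 2.24 and 2.81 TPM in vehicle livers. Here the treated animals were tightly grouped, each far above the highest vehicle animal. The low dose mean was 14.8 ± 2.11 TPM against a vehicle mean of 2.29 ± 0.442 TPM (SD, n = 5 each). On the log2 scale it rose by 2.61 ± 0.16 (SE, adjusted p = 5.03e-11).

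Among falls, ENSCPOT00000048338.1, of 6819 bases, had the largest fitted change under the rule and was a scarce transcript. It measured 0.332, 0.0174, 0, 0.470 and 0.169 TPM in low dose livers and 0.568, 0.891, 0.764, 1.05 and 1.44 TPM in vehicle livers. The gap between the groups was narrow. Its fitted change of -2.35 ± 0.74 on the log2 scale (SE, adjusted p = 0.0201) no longer passed when only the 10 animals compared were fitted (adjusted p = 0.0534). ENSCPOT00000003367.3, of 4344 bases, had the smallest p among the falls. Its levels were 3.88, 3.43, 3.11, 3.16 and 3.63 TPM in low dose livers and 6.46, 6.35, 7.10, 6.62 and 6.88 TPM in vehicle livers, with little spread in either group. A low dose mean of 3.44 ± 0.321 TPM stood against a vehicle mean of 6.68 ± 0.308 TPM (SD, n = 5 each), and the fitted change was -1.05 ± 0.10 on the log2 scale (SE, adjusted p = 1.22e-08).

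**Figure D2:**
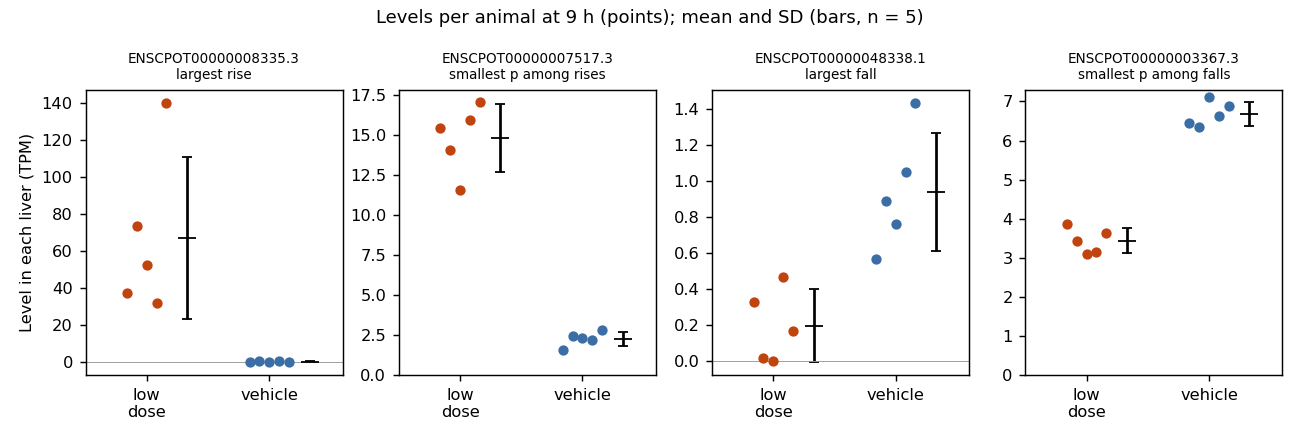
Level in each liver (TPM, vertical, one linear axis per panel) of the 4 named transcripts at 9 h, low dose animals in orange on the left of each panel and vehicle animals in blue on the right, with the mean and SD of 5 animals beside the points. In the first panel the low dose animals spread from 31.8 to 140.0 TPM with vehicle animals at or near 0, and in the last panel both groups are tight, around 3.44 and 6.68 TPM.

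The other transcripts picked by the rule filled in this picture. The 12 largest rises that met it had fitted log2 fold changes of 4.61 to 7.43, mean levels of 3.89 to 221 TPM in low dose livers and mean levels of 0.0731 to 8.53 TPM in vehicle livers. The highest of the 5 low dose values belonged to animal 5 in 10 of these 12. One of them, a transcript of 2206 bases, combined a steep rise with a high level, at 271, 196, 199, 174 and 264 TPM in low dose livers and 5.75, 9.62, 4.2996, 5.77 and 17.2 TPM in vehicle livers (log2 fold change 4.61 ± 0.33, SE). The 12 largest falls that met it were between -2.35 and -1.70. The most abundant of these was a transcript of 1869 bases, at 319 ± 94.4 TPM in low dose livers and 982 ± 445 TPM in vehicle livers (SD, n = 5 each). Another of these falls, in a transcript of 2281 bases, did overlap in TPM, with low dose animal 2 at 213 TPM and vehicle animal 2 at 201 TPM. So did an abundant fall, of 483 bases, with low dose animal 2 at 3608 TPM and vehicle animal 2 at 2852 TPM.

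Abundant transcripts moved by modest amounts. The 6 most abundant rises had log2 fold changes of 0.49 to 1.55. The first of these was a short transcript of 132 bases at 3173 ± 751 TPM in low dose livers and 1424 ± 136 TPM in vehicle livers (SD, n = 5 each). It is shorter than the typical sequenced fragment, so its TPM level, which depends on effective length, is uncertain. Its counts summed to 8322 in low dose libraries, against 151284 for the second, of 2068 bases at 691 TPM. Another, of 619 bases, measured 804 ± 100.2 TPM in low dose animals and was nearly constant among vehicle animals, at 258 ± 12.1 TPM (SD, n = 5 each, log2 fold change 1.55 ± 0.11, SE). The 6 most abundant falls had changes of -0.89 to -0.41, and 4 of the 6 were still called with library totals in place of the TMM scaling factors (weighted trimmed means of the log ratios between libraries). With TMM, 3 of the 6 were called without low dose animal 1, 4 without vehicle animal 2, and 5 or 6 without any other of the 10. At the high dose their fitted changes against the same vehicle animals were -0.46 to 0.056 and none of the 6 was called, while the high dose called 26.3% of all transcripts, 13.5% higher and 12.8% lower. The direct test of high minus low dose called 1 of the 6, none with library totals, and 7.08% of all transcripts, so a difference between the doses was not shown for the rest. At 33 h all 6 were called lower in low dose livers, at -1.14 to -0.64, and 5 of them with library totals (11.4% of all transcripts were called lower then). None of the 5 most abundant transcripts of the vehicle liver, at mean levels of 12357 to 42233 TPM in low dose livers and 13598 to 46016 TPM in vehicle livers, was called, their adjusted p running from 0.213 to 0.671. The first of these 5 was 93 bases long, also shorter than the typical fragment. Its counts summed to 61676 in low dose libraries, against 8523760 for the second, of 2055 bases at 39801 TPM.

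With TMM scaling, direction went with the level of the transcript. So that the compared animals did not set the classes, levels were taken from the vehicle livers of 33 h. Of 5118 transcripts under 1 TPM, 573 rose and 79 fell. Between 1 and 10 TPM, 1267 of 7701 rose and 821 fell. Between 10 and 100 TPM the balance turned, with 582 of 4486 rising and 968 falling, and between 100 and 1000 TPM 43 of 805 rose and 159 fell. At 1000 TPM or more, 1 of 129 rose and 11 fell. Class medians ran in the same order, at 0.22, 0.02, -0.09, -0.14 and -0.15 on the log2 scale, beside a median of 0.0028 over all tested transcripts. A transcript near 0 in vehicle livers can be found higher but hardly lower, which limits the first class. The filter on low counts limits it too, since a transcript scarce in vehicle livers could pass through a treated group where it was high. With only the compared groups filtered and fitted, the class held 3553 transcripts, of which 419 rose and 59 fell, with a median of 0.18. That filter could still pass a transcript through the low dose group alone.

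The scaling bore on this pattern. TMM factors were 0.990 ± 0.0465 in low dose libraries and 0.903 ± 0.0373 in vehicle libraries (SD, n = 5 each). Scaled by library totals, all transcripts had a median of 0.13, and 76.1% of the 4127 calls were rises, where TMM gave 54.8%. The class of 10 to 100 TPM then had 787 rises and 462 falls with a median of 0.04, so that its direction turned. The classes above it were close to even, with 68 rises and 90 falls at 100 to 1000 TPM and 5 rises and 7 falls at 1000 TPM or more, and with medians of -0.0091 and -0.027. The order of the medians from the scarce to the abundant classes was the same under both scalings. A change of scaling moves all transcripts by nearly the same amount, however, so it could hardly have altered that order and does not test it.

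**Figure D3:**
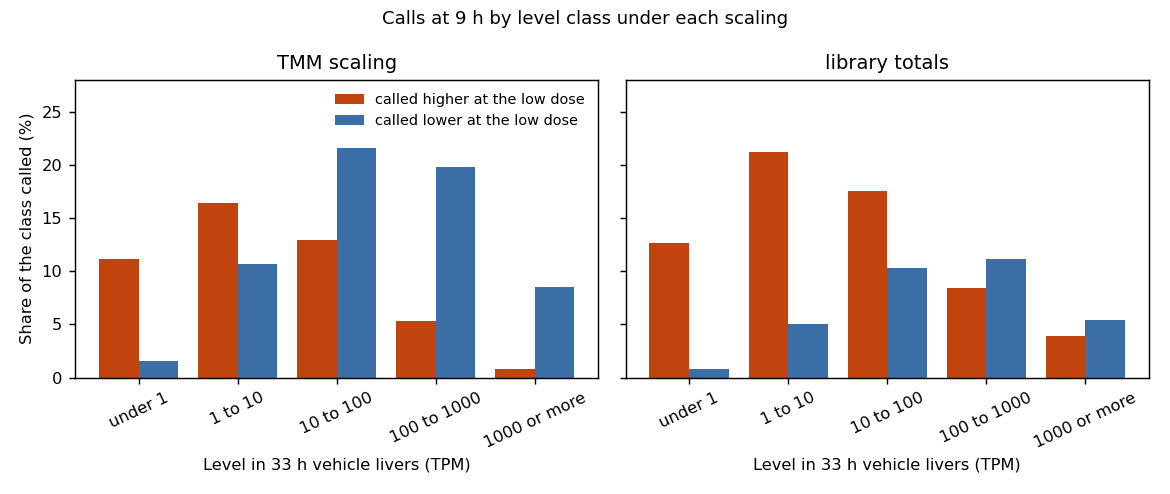
Share of the tested transcripts of each level class that was called higher (orange) or lower (blue) at the low dose, 9 h (vertical, percent), by level in the vehicle livers of 33 h (horizontal, TPM), with TMM scaling on the left and library totals on the right. With TMM the blue bars exceed the orange ones from 10 TPM upward, and with library totals only from 100 TPM upward and by less.

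The most abundant transcripts took a slightly smaller share of the counts. The 100 most abundant transcripts held 37.0%, 37.5%, 40.2%, 41.0% and 38.9% of counts in the low dose livers, against 41.6%, 40.9%, 40.5%, 41.3% and 40.4% in the vehicle livers. Low dose animal 4 lay within the vehicle range and the other 4 below it. The means were 38.9% ± 1.72 at the low dose and 40.9% ± 0.532 in vehicle animals (SD, n = 5 each), and a two-sided exact permutation test gave p = 0.0397, also 0.0397 when adjusted over 2 comparisons. The difference did not pass for shares of TPM (57.4% at the low dose against 58.3% in vehicle animals, exact p = 0.333) or without any 1 of the vehicle animals (exact p from 0.0635 to 0.0873).

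More transcripts were detected after the low dose at equal depth. With each library thinned to the smallest total of the 10, 16609, 16541, 16191, 16525 and 16645 transcripts reached 10 counts in the low dose livers, against 15935, 15925, 16107, 15861 and 15952 in the vehicle livers. No low dose library was below a vehicle library. The means were 16502 ± 181 at the low dose and 15956 ± 91.2 in vehicle animals (SD, n = 5 each). A two-sided exact permutation test gave p = 0.00794, the lowest possible with 5 animals against 5, and 0.0159 after adjustment over 2 comparisons.

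Some transcripts had counts in low dose livers and none in vehicle livers of 9 h. Of the tested transcripts, 140 had no count in any vehicle library of 9 h, and 23 of these had counts in all 5 low dose libraries. Of the 140, 55 were called higher, where 13.5% of all tested transcripts were. Only 17 of the 55 also had no count in any vehicle library of 33 h. Those 23 held 1 to 214 counts per low dose library and had mean levels of 0.0528 to 7.003 TPM. With 3 counts per library as the floor for the vehicle livers, they were at least 1.01-fold to at least 32.0-fold higher at the low dose, with a median bound of 4.95-fold. In the other direction, 58 tested transcripts had no count in any low dose library, and none of them had counts in all 5 vehicle libraries. Of the 58, 11 were called lower, where 11.2% of all tested transcripts were. A transcript at 0 throughout a group could pass the filter on low counts only through other groups. The 140 and the 58 therefore depend on that filter and do not compare the directions. Values of 0 throughout a group also fixed the direction a call could take, which favours a higher share than over all tested transcripts.

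Few of the steepest falls separated the animals. Of the 24 falls of at least 4-fold, 5 had groups that did not overlap, 17 had no count in at least 1 vehicle library and 22 had none in at least 1 low dose library. In these 24 the highest vehicle animal held a median of 46.8% of the vehicle counts. Of the 375 rises of at least 4-fold, 294 had groups that did not overlap and 321 were called whichever of the 10 animals was left out, as were 11 of the 24 falls. The vehicle libraries together held under 10 counts for 142 of the 375 rises. Of these rises, 192 had no count in at least 1 vehicle library and 48 had none in at least 1 low dose library. Where there were vehicle counts, the highest vehicle animal held a median of 38.8% of them, and 65.7% for the 129 rises of at least 16-fold. Levels of transcripts that share sequence are uncertain, since the estimation divides reads between them.

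Over all transcripts, length made little difference to direction. With the tested transcripts split at 1473, 2537 and 4130 bases, the shares that rose were 12.5%, 13.7%, 14.2% and 13.6% from the shortest to the longest class, and the shares that fell were 10.1%, 12.1%, 11.3% and 11.1%. The medians of the 4 classes lay between -0.0098 and 0.0097 on the log2 scale. Within each level class the median was lower in the longest transcripts than in the shortest. From the shortest to the longest class it was 0.39, 0.32, 0.20 and 0.12 under 1 TPM, over 875, 1242, 1373 and 1628 transcripts. Between 100 and 1000 TPM it was -0.09, -0.19, -0.31 and -0.38, over 438, 232, 98 and 37 transcripts. The span was smaller between 1 and 10 TPM, at 0.043 to 0.0012, and between 10 and 100 TPM, at -0.081 to -0.12.

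The 5 low dose animals responded evenly, apart from the size of the steepest rises. Each animal was measured on transcripts called in a fit that left it out, as the mean difference in log2 CPM from the vehicle mean. Over called rises of any size, low dose animals 1 to 5 stood at 1.01, 0.995, 0.98, 1.05 and 1.14, while vehicle animals, each set against the other 4, ran from 0.019 to 0.19. Over called falls, the low dose animals ran from -0.58 to -0.51 and the vehicle animals from -0.16 to -0.016. In each low dose animal 97.5% to 99.2% of the rises called without it lay above the vehicle mean, against 48.9% to 68.9% in the vehicle animals. The vehicle livers that gave this mean also helped to make the calls, which favours a difference in the direction of the call. Over rises of at least 4-fold, however, animals 4 and 5 stood at 2.87 and 3.18, above the 2.37, 2.46 and 2.44 of animals 1, 2 and 3, and the vehicle animals ran from 0.13 to 0.46. Totals of low dose animals 1 to 5 were 32311000, 30828900, 23112100, 24470800 and 25836600 estimated counts. Since each animal had its own fit, the steep rises scored differed too, at 367, 374, 369, 350 and 332 transcripts. Whether depth or the choice of transcripts bore on the difference was not tested.

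**Figure D4:**
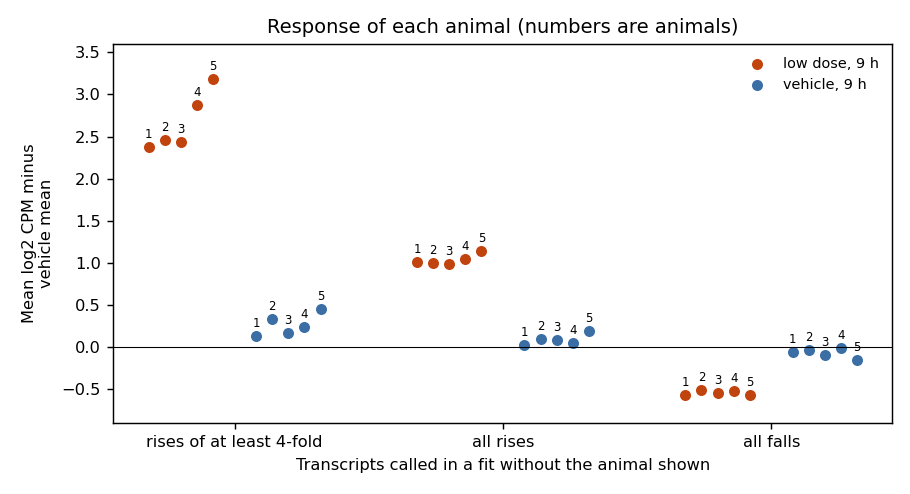
Mean difference in log2 CPM from the vehicle mean (vertical) of each animal over transcripts called in a fit without that animal, for rises of at least 4-fold, all rises and all falls (horizontal), low dose animals in orange and vehicle animals in blue, with animal numbers beside the points. The low dose animals lie together for all rises, at 0.98 to 1.14, and for all falls, while animals 4 and 5 stand above the rest for the steep rises.

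Spread within a group was much the same in treated and vehicle livers. Over all tested transcripts, the median SD of log2 CPM was 0.244 in low dose animals and 0.255 in vehicle animals, and over called falls it was 0.157 in low dose animals and 0.158 in vehicle animals. For rises of at least 4-fold it was 0.595 in low dose animals and 0.498 in vehicle animals, where vehicle values are near 0 and counting error is large.

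At this time most of the low dose response was not told apart from that of the high dose. A direct test of high minus low dose called 7.08% of all transcripts, 2.86% as higher and 4.22% as lower at the high dose (522 and 770 transcripts, against 256 and 1738 with library totals). The 1292 calls became 805, 837 and 728 without low dose animals 1, 2 and 3, and 648 and 783 without high dose animals 3 and 4. Of the 2466 low dose rises, the high dose was higher again for 172 and lower for 158, with no difference detected for 2136. Of the 2038 falls, the high dose was lower again for 89 and higher for 139, with no difference detected for 1810. These counts rest on the same low dose animals that gave the low dose calls, which favours values nearer to vehicle in the other group.

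Most rises that went further at the high dose were already at least 2-fold at the low dose. The 172 had a median log2 fold change over vehicle of 2.16 at the high dose and 1.20 at the low dose, and 108 of them were at least 2-fold at the low dose. By size of the low dose rise, a higher value at the high dose was called for 3.97% of 1612 rises under 2-fold, 13.8% of 479 between 2-fold and 4-fold, 14.5% of 173 between 4-fold and 8-fold and 8.42% of 202 above that. The 158 rises that were lower at the high dose were mostly small, with medians of 0.028 at the high dose and 0.46 at the low dose, and 10 of them were at least 2-fold. Which way the small differences ran depended on the scaling, which moved the median of high minus low dose over all transcripts to -0.14 with library totals. Then the high dose was higher again for 120 of 3139 rises and lower for 508. With limma voom it was higher again for 350 of 2791 rises and lower for 400. For falls the balance turned, since with library totals the high dose was lower again for 89 of 988 and higher for 27. With limma voom it was lower again for 139 of 2474 falls and higher for 339.

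Single transcripts went either way. The fourth largest rise that met the rule, in a transcript of 2883 bases, was 5.30, 10.6, 8.62, 29.8 and 33.5 TPM in low dose livers and 0.170 to 0.855 TPM in vehicle livers, and the high dose was higher again by 2.29 on the log2 scale (adjusted p = 0.0129). The second largest fall, in a transcript of 2322 bases, was 1.59, 3.67, 1.13, 1.002 and 0.962 TPM in low dose livers and 5.78, 10.5, 7.37, 8.90 and 5.73 TPM in vehicle livers. At the high dose it was less deep, at 4.36 ± 1.82 TPM (SD, n = 5, log2 difference of high minus low dose 1.54, adjusted p = 0.00904). ENSCPOT00000008335.3 was at 38.6 ± 25.5 TPM at the high dose and 67.0 ± 43.9 TPM at the low dose (SD, n = 5 each), a log2 difference of -0.58 ± 0.71 (SE, adjusted p = 0.701). For ENSCPOT00000007517.3 the values were 13.3 ± 0.531 TPM at the high dose and 14.8 ± 2.11 TPM at the low dose (SD, n = 5 each, log2 difference 0.0071 ± 0.15, SE, adjusted p = 0.988). ENSCPOT00000048338.1 was near 0 at both doses, at 0.195 ± 0.137 TPM at the high dose and 0.198 ± 0.203 TPM at the low dose (SD, n = 5 each, adjusted p = 0.938). ENSCPOT00000003367.3 had fallen less far at the high dose, at 4.06 ± 0.324 TPM, than at the low dose, at 3.44 ± 0.321 TPM (SD, n = 5 each, log2 difference 0.40 ± 0.10, SE, adjusted p = 0.0110). Scaled by library totals, that difference was not called (adjusted p = 0.0770).

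By 33 h part of the 9 h changes had receded measurably, 25.2% of the rises and 23.4% of the falls with TMM scaling, and 11.9% and 51.9% with library totals. The low dose effect at 33 h, against vehicle animals of 33 h, was tested against the effect at 9 h in groups that share no animal, and the difference was called for 11.3% of all transcripts, 5.77% with the effect higher at 33 h and 5.56% with it lower. Among the 2466 rises of 9 h, 621 were nearer to vehicle at 33 h, with a median log2 fold change of -0.035 at 33 h and 0.96 at 9 h. A further 50 rose further, and 1795 showed no detected difference. Of the 2038 falls, 477 were nearer to vehicle, with a median of 0.14 at 33 h and -0.49 at 9 h, while 26 fell further and 1535 showed no detected difference. Choosing transcripts by their call at 9 h favours smaller values at 33 h.

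A later call in the same direction was made for 976 of the 2466 rises (39.6%, against 14.3% of all transcripts called higher at 33 h) and for 714 of the 2038 falls (35.0%, against 11.4% called lower). The opposite call was made for 64 rises and 88 falls. By size of the 9 h rise, those nearer to vehicle at 33 h were 323 of 1612 under 2-fold, 164 of 479 between 2-fold and 4-fold, 78 of 173 between 4-fold and 8-fold and 56 of 202 above that, so the share called did not go on growing with size. It does not show that the steepest rises receded less. Median log2 changes went from 4.62 at 9 h to 1.43 at 33 h for those 202, and from 2.40 to 0.73 between 4-fold and 8-fold. For 101 of the 129 rises of at least 16-fold, the vehicle libraries of 9 h together held under 10 counts. Whether this lowered the share was not tested.

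The comparison of times depended strongly on the scaling. Scaled by library totals, the effect at 33 h minus that at 9 h had a median of 0.20 over all transcripts, and it was higher for 2371 and lower for 572, where TMM gave 1053 and 1014. Receding changes were then 11.9% of 3139 rises (373) and 51.9% of 988 falls (513), and 159 rises and 5 falls went further. At 33 h alone, library totals called 7434 transcripts, 36.9% of those tested as higher and 3.86% as lower, with a median of 0.36, against 4694 calls with TMM. A same-direction call at 33 h was then made for 69.3% of the 9 h rises and 15.3% of the 9 h falls, and the opposite call for 13 rises and 187 falls. The order of rises and falls in the share that receded thus turned with the scaling.

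**Figure D5:**
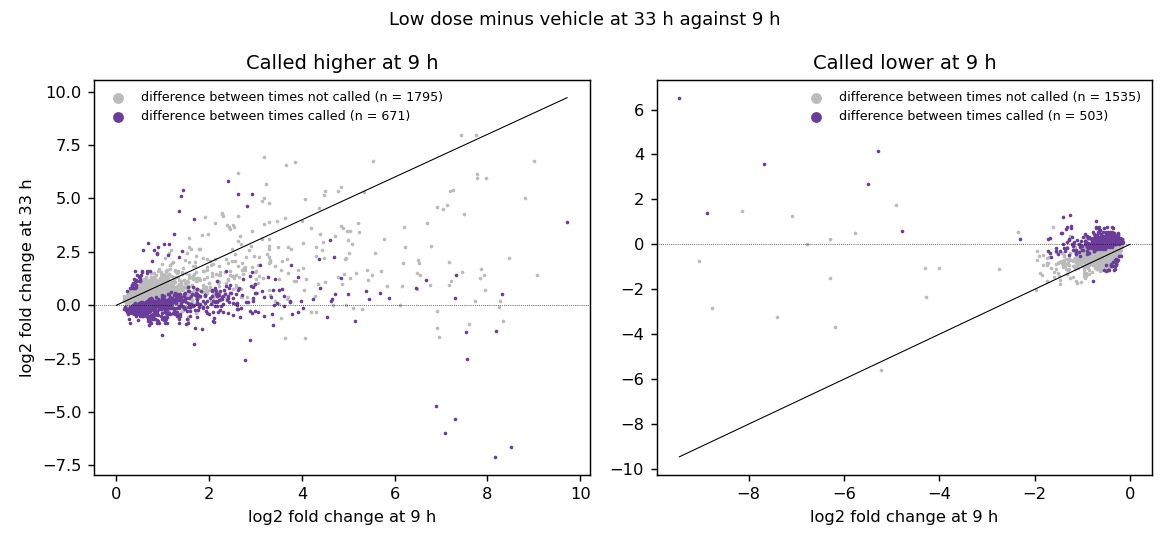
Low dose log2 fold change at 33 h (vertical) against that at 9 h (horizontal) for the transcripts called higher (left) and lower (right) at 9 h, with those whose effect differed between the times in purple, the others in grey, the line of equal change drawn solid and 0 dotted. Most purple points lie near or beyond 0 on the vertical axis, among them, with TMM scaling, 621 rises and 477 falls that were nearer to vehicle at 33 h.

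The best separated rise and fall were both among the changes that receded. ENSCPOT00000007517.3 measured 2.80 ± 0.678 TPM in low dose livers and 2.09 ± 0.280 TPM in vehicle livers at 33 h (SD, n = 5 each), and its fitted change in log2 units was 0.0089 ± 0.16 at 33 h and 2.61 ± 0.16 at 9 h (SE, adjusted p of the difference 1.27e-07). ENSCPOT00000003367.3 measured 8.17 ± 0.438 TPM in low dose livers and 6.40 ± 0.807 TPM in vehicle livers at 33 h (SD, n = 5 each), with a log2 fold change of -0.031 ± 0.095 at 33 h and -1.05 ± 0.10 at 9 h (SE, adjusted p of the difference 3.22e-05). TPM values are not TMM scaled, and these TPM means lie apart at 33 h while the fitted change is near 0. With library totals that change was 0.29 at 33 h (adjusted p = 0.0158).

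ENSCPOT00000008335.3 remained variable, at 43.2 ± 62.2 TPM in low dose livers of 33 h (SD, n = 5), where animals ran from 0 to 149.8 TPM, and at 0 to 0.360 TPM in vehicle livers of 33 h. Its change did not differ detectably between the times (adjusted p = 0.909). ENSCPOT00000048338.1 measured 0.800 ± 0.275 TPM in low dose livers and 0.426 ± 0.244 TPM in vehicle livers at 33 h (SD, n = 5 each), and the difference of its effect between the times missed the threshold (log2 difference 2.89 ± 1.01, SE, adjusted p = 0.0641) but passed with library totals (adjusted p = 0.0372).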

How the data were processed

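Liver RNA of 30 guinea pigs was sequenced from poly-A enriched, stranded, paired-end libraries, per the labels' protocols. The authors quantified transcripts with kallisto 0.42.4, per the submitters' processing notes; the transcript set is not given in the sources used here. The deposited estimated counts hold fractions and carry no normalization. The deposited TPM values are scaled per effective length and to a fixed sum per library, per the file headers. Animals were grouped by labelled dose and duration; no batch is labelled. The 20 pairs of libraries within the groups compared differed by far more than counting noise (chi-square per degree of freedom 35.8 to 126).

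Estimated counts were rounded and tested with edgeR 4.0.16 (R 4.3.3): filterByExpr defaults (minimum count 10, total 15), TMM, and 1 robust quasi-likelihood model of 6 groups and 30 animals with 24 residual degrees of freedom. Benjamini-Hochberg adjustment ran over 18239 transcripts. Fitted fold changes carry a prior count of 0.125, log2 CPM one of 2. The SE of a fitted change is its absolute value divided by the square root of the F statistic. It was not estimated by the fit and is approximate, most of all where 1 group is near 0. Floors cover counting error only. P-values of this model weigh a difference against the spread within all 6 groups, moderated across transcripts. Libraries were taken as separate animals from the series design.

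The rule for named transcripts asked for an adjusted p under 0.05, a mean of 5 CPM or more in the higher group and groups that did not overlap. Both CPM and overlap were taken after TMM scaling, and 1473 rises and 1259 falls met the rule. It took the 12 largest, the 6 most abundant and the 6 with the smallest p in each direction, and the 5 most abundant in vehicle livers. Identifiers are printed only for the first by size and by p, a limit set after the values were seen. The comparison, and all lists, were chosen with earlier results of these data known. Gene lists and sums per gene needed names and were not run. In simulated counts for low dose minus vehicle at 9 h, over 17226 transcripts, the test recovered 56.7% of 67 changed 1.5-fold, 79.1% of 67 changed 2-fold and 100% of 66 changed 4-fold, with 5 of 162 calls false. Only these transcripts were changed, none of them among the scarcest, and every other group was set to the vehicle level. In the data 24.7% were called, scarce transcripts among them, so the simulated rates need not carry over. Alternatives included DESeq2 1.42.0 and limma voom 3.58.1.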

Additional observations from a re-analysis of the deposited data

Results flagged for a closer look

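Low dose animal 3 stood apart from the other low dose animals in the number of transcripts with at least 10 counts at equal depth, at 16191, where the other 4 lay between 16525 and 16645. Its library was also the smallest of the 10, and thinning to that total leaves it unthinned. It was the only one of 20 such checks of a group of 5 to pass Dixon's critical value, and chance gives about 1 in 20.

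Between 33 h and 9 h, a difference in the low dose effect was called for 2067 transcripts (edgeR adjusted p under 0.05), and among the 4 named ones for ENSCPOT00000007517.3, by -2.60 on the log2 scale, and for ENSCPOT00000003367.3, by 1.02.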

How the results depend on the processing

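The count of transcripts changed by the low dose at 9 h stayed within 1.5 times of 4504 under each alternative run, from 3854 to 4146 with 1 animal left out and from 4127 to 5265 otherwise. The count for the low dose effect at 33 h minus 9 h ran from 1661 to 2030 with 1 animal left out and from 1809 to 2943 otherwise; its share of higher calls was 50.9%, and 80.6% with library totals. For high minus low dose at 9 h, 1292 became 1994 with library totals (12.8% rises, against 40.4%) and 2541 with limma voom, and 648 to 1485 with 1 animal left out: 805, 837 and 728 without low dose animals 1, 2 and 3 and 648 and 783 without high dose animals 3 and 4. With library totals, the level class medians became 0.35, 0.15, 0.041 (reversed), -0.0091 and -0.027 from the scarcest to the most abundant class. The difference in the share of the 100 most abundant transcripts, -2.04 points, was -1.18 for 50 transcripts (exact permutation p = 0.206), -0.889 for TPM and -2.55 to -1.55 with 1 animal left out. The difference in transcripts detected, 546, was 486 without thinning (exact permutation p = 0.0635). Class medians, dose and time splits of the calls under other settings, calls at 33 h under library totals, and leaving out animals of the other groups were chosen after seeing the data. Sums per gene were not run, for want of gene names. No paired analysis was possible because the labels give no numbers that groups share. The cause of these shifts was not tested.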
